A study of Mus musculus with 6 samples.

Results

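The genes described here are the oxytocin receptor gene Oxtr and 9 genes for regulators of G protein signalling, Rgs1, Rgs2, Rgs3, Rgs4, Rgs5, Rgs10, Rgs12, Rgs16 and Rgs20. They are 10 of the 23337 genes in the deposited count files, taken by gene symbol. They were chosen with their levels in these libraries and their knockout to wild-type differences already known, so those levels and differences are given as a description, with no test. Of the 10 genes, 9 passed the filter on low counts and were carried through the fit across all genes, and Rgs1 did not pass.

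The libraries were made from messenger RNA of mammary gland basal epithelial cells. There were 4 libraries from mice homozygous for the vimentin allele Vim tm1Cba (knockout 1 to 4) and 2 from Vim wt/wt mice (wild type 1 and 2). All mice were 15 weeks old and of the strain 129/Sv X C57BL/6, and each library pooled cells of 2 to 3 mice. Live cells negative for CD45 and CD31, low for CD24 and high for CD49f were sorted without culture. The labels name 2 independent experiments but do not assign the libraries to them. A day code, read from the file names, puts knockout 1, knockout 2 and wild type 1 in experiment 1, and knockout 3, knockout 4 and wild type 2 in experiment 2. The labels do not say whether pools of 1 experiment shared mice, so the spread between libraries may be partly technical.

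Oxytocin is released by the pituitary during suckling and acts on its receptor on the basal, or myoepithelial, cells that surround the milk-producing alveoli. The receptor couples mainly to the G protein Gq, which turns on phospholipase C. This releases calcium and activates myosin light chain kinase, and the cell contracts and ejects milk. RGS proteins end such signals: they speed the hydrolysis of GTP by the alpha subunits of G proteins. Rgs1, Rgs2, Rgs3, Rgs4, Rgs5 and Rgs16 belong to the small R4 subfamily, which acts on Gq and Gi subunits, and Rgs2 prefers Gq. Rgs10 and Rgs12 belong to the R12 subfamily, which acts on Gi subunits, and Rgs20 to the RZ subfamily, known for its action on Gz.

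Vim, the targeted gene, was at 92.4, 105, 111 and 111 CPM (reads per 1000000 reads of the scaled library) in knockout 1 to 4, against 215 and 241 CPM in wild type 1 and 2, so it was lower but not absent (log2 fold change -1.12, SE 0.12, adjusted p = 0.0190 by edgeR). The counts cover the whole gene and do not show from which part of it the remaining reads come. Total counts per library were 25347967 to 30771258 in the knockout and 27342539 to 31200622 in the wild type, so that 1 read was worth 0.0304 to 0.0395 CPM. The 10 basal markers, such as Krt5, Krt14 and Trp63, summed to 14675 to 17211 CPM in the knockout libraries and to 16782 and 17057 CPM in the wild-type libraries. The 12 luminal markers summed to 2238 to 2467 CPM in the knockout and to 2241 and 2334 CPM in the wild type. Of these, 7 had fold changes above 0 and 5 below, with a median log2 fold change of 0.20. By edgeR 0 had an adjusted p under 0.05. An unadjusted p under 0.05 was reached by 2, both higher, against 4.48% of all tested genes in that direction.

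Per transcript length, Rgs2 was the most abundant of the 10 genes. Its level, in TPM (a share like CPM, after division of the counts by exon length), ran from 61.7 to 319.8 over the 6 libraries, with a mean of 177. Oxtr followed with a mean of 70.2 TPM (30.3 to 114), Rgs12 with 55.2 TPM (46.5 to 63.0) and Rgs10 with 42.6 TPM (23.8 to 54.9). These 4 genes could not be placed in a fixed order, since the range of each overlapped that of the next and Oxtr exceeded Rgs12 in only 3 of 6 libraries. Rgs16 averaged 10.9 TPM (6.79 to 18.1), below Rgs10 in 6 of 6 libraries and with no overlap. Rgs5 and Rgs4 averaged 2.80 and 2.38 TPM and exceeded each other in 3 libraries each. Rgs20 averaged 1.47 TPM, Rgs3 0.589 TPM and Rgs1 0.218 TPM, and the ranges of Rgs3 and Rgs1 did not overlap.

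**Figure D1:**
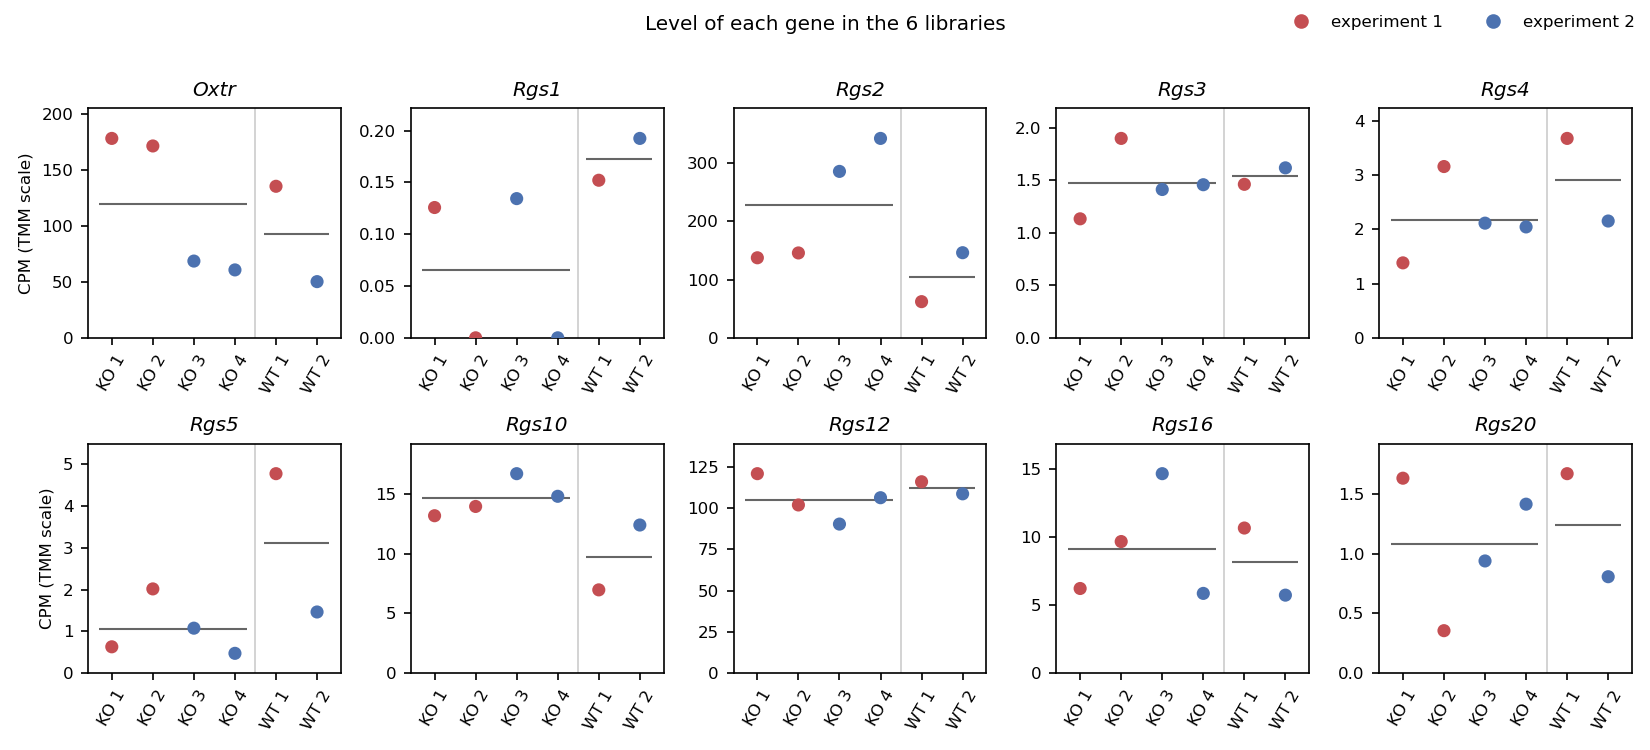
Level of each gene in each library, in CPM on the TMM scale (y axis from 0, a separate scale for each gene). Knockout libraries stand left of the wild-type libraries, colours mark the experiments, and lines are the group means; Oxtr was higher in all 3 libraries of experiment 1, while Rgs2 in knockout 3 and 4 stood above the other 4 libraries.

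The receptor gene Oxtr lies on chromosome 6, positions 112473684 to 112489808 (mm10, minus strand). It had 178 and 171 CPM in knockout 1 and 2, 68.5 and 60.6 CPM in knockout 3 and 4, 135 CPM in wild type 1 and 50.1 CPM in wild type 2. The 3 libraries of experiment 1 were thus all higher than the 3 of experiment 2, and the genotypes overlapped across the whole set. Over all libraries Oxtr averaged 119.5 ± 63.6 CPM (SD, n = 4) in the knockout and 92.6 ± 60.1 CPM (SD, n = 2) in the wild type, with a log2 fold change of 0.37 (knockout minus wild type), smaller than the spread within either genotype. Within the experiments the libraries lay closer together. The mean of the knockout pair was 1.29 times wild type 1 in experiment 1 and 1.29 times wild type 2 in experiment 2, log2 differences of 0.37 and 0.36. The 2 knockout libraries differed from each other by 0.06 on the log2 scale in experiment 1 and by 0.18 in experiment 2. The step between experiments was larger than either: experiment 1 was 2.71-fold above experiment 2 in the knockout and 2.70-fold above it in the wild type. Leaving out a wild-type library moved the fold change over all libraries to 1.27 (wild type 1 left out) or to -0.18 (wild type 2 left out). Each of these 2 values sets knockout libraries of both experiments against a wild type of 1 experiment.

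The Gq-selective regulator gene Rgs2 lies on chromosome 1, positions 143999338 to 144004149 (minus strand). It had 137 and 146 CPM in knockout 1 and 2, against 62.0 CPM in wild type 1. In experiment 2 it had 286 and 342 CPM in knockout 3 and 4, against 146 CPM in wild type 2. Knockout libraries were above the wild type of their own experiment in both cases, while wild type 2 of experiment 2 stood above both knockout libraries of experiment 1, so the genotypes overlapped across the whole set. Rgs2 averaged 228 ± 102 CPM (SD, n = 4) in the knockout and 104 ± 59.4 CPM (SD, n = 2) in the wild type, a log2 fold change of 1.13. The ratio of knockout mean to wild type was 2.28 in experiment 1 and 2.15 in experiment 2, log2 differences of 1.19 and 1.10, while the knockout pairs differed by 0.08 and 0.26. Between experiments Rgs2 moved against Oxtr: experiment 2 was 2.22-fold above experiment 1 in the knockout and 2.35-fold above it in the wild type. With wild type 1 left out the fold change over all libraries was 0.66, and with wild type 2 left out it was 1.88.

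Oxtr and Rgs2 were the 2 of 9 genes whose 3 libraries of 1 experiment all lay on 1 side of the 3 libraries of the other, as they did for 26.1% of all tested genes. For Rgs2 the gap was narrow, since wild type 2 stood at 146.0 CPM and knockout 2 at 145.6 CPM. The immediate early genes, a class that responds within minutes to stimuli such as tissue dissociation and to which Rgs2 itself is often counted, summed to 15253 to 20971 CPM in the knockout and to 16611 and 16806 CPM in the wild type. Of these 17 genes, 12 had fold changes above 0. By edgeR 0 were called, with or without the experiment as a block, while 1 had an unadjusted p under 0.05 and DESeq2 called 1, Nr4a2, higher. Over all tested genes, 8.57% had an unadjusted p under 0.05 by edgeR (4.48% with the knockout higher), and DESeq2 called 1.17% higher and 0.711% lower. The part of the immediate early genes in the level of Rgs2 was not tested.

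The 250 bases before the annotated start of the 3 genes that stood above wild type in both experiments (Oxtr, Rgs2 and Rgs10) are shown because this is where factors that start their transcription could bind. They come from RefSeq (GRCm38.p6), whose table held windows for 8 of the 10 genes, and are written 5′ to 3′ on the strand of the gene. Capitals mark matches, on either strand, to a cAMP response element half-site (TGACG), an E-box (CACGTG), a GC box (GGGCGG) or a CCAAT box (CCAAT).
Oxtr, chr6:112489826-112490075, minus strand: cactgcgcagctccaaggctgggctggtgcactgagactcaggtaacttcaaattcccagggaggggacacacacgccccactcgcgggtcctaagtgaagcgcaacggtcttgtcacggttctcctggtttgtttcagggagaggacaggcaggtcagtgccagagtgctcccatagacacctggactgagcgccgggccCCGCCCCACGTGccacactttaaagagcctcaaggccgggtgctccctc
Rgs2, chr1:144004150-144004399, minus strand: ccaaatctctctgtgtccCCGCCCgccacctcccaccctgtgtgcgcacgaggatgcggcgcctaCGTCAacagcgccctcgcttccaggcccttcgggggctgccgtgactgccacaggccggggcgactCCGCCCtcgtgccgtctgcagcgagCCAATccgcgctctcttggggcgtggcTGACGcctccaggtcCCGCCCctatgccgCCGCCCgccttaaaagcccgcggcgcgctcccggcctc
Rgs10, chr7:128418173-128418422, minus strand: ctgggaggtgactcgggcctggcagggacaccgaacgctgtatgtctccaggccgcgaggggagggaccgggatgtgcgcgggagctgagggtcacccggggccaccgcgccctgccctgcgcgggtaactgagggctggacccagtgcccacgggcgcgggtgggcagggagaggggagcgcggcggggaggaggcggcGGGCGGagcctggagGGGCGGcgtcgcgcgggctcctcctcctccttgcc
The window of Rgs2 held 2 half-sites, 4 GC boxes and 1 CCAAT box. The window of Oxtr held 1 GC box directly followed by 1 E-box, and that of Rgs10 held 2 GC boxes. No 2 matches overlapped in these windows. Of the 32851 windows in the table, 17.8% held TGACG, 6.0% CACGTG, 32.7% GGGCGG and 33.8% CCAAT. These 3 windows held no match to the other 5 of the 9 motifs searched, which were the full cAMP response element (TGACGTCA, in 1.5% of windows), an AP-1 site (TGANTCA, 6.7%), a TATA box (TATAAA, 12.4%), an NF-kB site (GGGANTTCC, 1.4%) and the CArG box (1.5%). The motifs were picked by hand with the levels of the genes known, and a match is a run of letters, not a measured binding site.

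**Figure D2:**
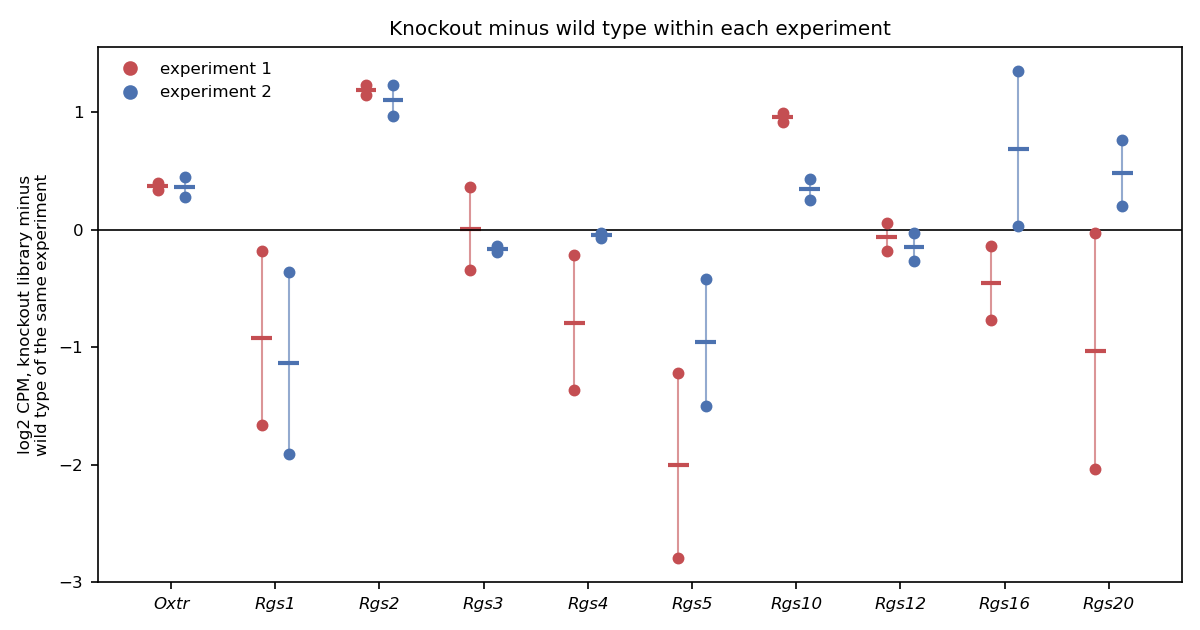
Difference between each knockout library and the wild-type library of the same experiment, on the log2 CPM scale (y axis), for the 10 genes (x axis). Points are single knockout libraries and bars the mean of the pair; for Oxtr, Rgs2 and Rgs10 all 4 points lie above 0, and for Rgs20 the pairs lie on opposite sides of 0.

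Rgs10, which acts on Gi subunits, lies on chromosome 7, positions 128373625 to 128418172 (minus strand). It had 13.2, 13.9, 16.7 and 14.8 CPM in knockout 1 to 4, against 6.97 and 12.4 CPM in wild type 1 and 2. It was the 1 gene of the 9 whose genotypes did not overlap; 16.2% of all tested genes had groups that did not overlap, 7.60% with the knockout above. Rgs10 averaged 14.7 ± 1.51 CPM (SD, n = 4) in the knockout and 9.68 ± 3.84 CPM (SD, n = 2) in the wild type, a log2 fold change of 0.60. The log2 difference was 0.95 in experiment 1 and 0.34 in experiment 2, and the knockout pairs differed by 0.08 and 0.17. The size depended on the wild-type library used: it was 0.26 when wild type 1 was left out and 1.07 when wild type 2 was.

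Rgs12, a large regulator that holds further domains for binding Ras and Gi proteins, lies on chromosome 5, positions 34949448 to 35033593 (plus strand). It was at 121, 102, 90.4 and 106 CPM in knockout 1 to 4, against 116 and 109 CPM in wild type 1 and 2, so the knockout libraries spread over both sides of the wild type. Its means were 105 ± 12.6 CPM (SD, n = 4) in the knockout and 112 ± 5.18 CPM (SD, n = 2) in the wild type, a log2 fold change of -0.10, smaller than this spread. The table of starts lists 2 for Rgs12 and 2 for Rgs3, and the counts per gene do not tell the resulting transcripts apart.

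Rgs16, an R4 regulator of Gq and Gi, lies on chromosome 1, positions 153740353 to 153745468 (plus strand). It had 6.22 and 9.68 CPM in knockout 1 and 2, against 10.7 CPM in wild type 1. In experiment 2 it had 14.7 and 5.86 CPM in knockout 3 and 4, against 5.74 CPM in wild type 2. The knockout pair was thus below wild type in experiment 1 and above it in experiment 2, with log2 differences of -0.46 and 0.69, but the pairs themselves were 0.63 and 1.31 apart. The higher mean of experiment 2 rested mostly on knockout 3. The means were 9.11 ± 4.09 CPM (SD, n = 4) in the knockout and 8.21 ± 3.49 CPM (SD, n = 2) in the wild type.

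Rgs5 and Rgs4 lie 48.0 kb apart on chromosome 1 and run towards each other (Rgs5 at positions 169655501 to 169693526 on the plus strand, Rgs4 at 169741477 to 169747642 on the minus strand). Both are R4 regulators, and Rgs5 is widely used as a marker of pericytes, the contractile cells around small vessels. Rgs5 had 0.629, 2.02, 1.07 and 0.472 CPM in knockout 1 to 4, against 4.78 and 1.46 CPM in wild type 1 and 2. Wild type 1 stood above the other 5 libraries, while wild type 2 lay within the knockout range. Rgs5 averaged 1.05 ± 0.694 CPM (SD, n = 4) in the knockout and 3.12 ± 2.34 CPM (SD, n = 2) in the wild type, a log2 fold change of -1.59 that was -0.47 without wild type 1. The knockout mean was 0.277 of wild type 1 in experiment 1 and 0.529 of wild type 2 in experiment 2. In counts, knockout 4 had 12 reads (95% Poisson interval 6.20 to 21.0) and wild type 1 had 157 (133 to 184); such intervals cover counting error only.

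Rgs4 had 1.38, 3.16, 2.12 and 2.05 CPM in knockout 1 to 4, against 3.68 and 2.16 CPM in wild type 1 and 2. Again wild type 1 was the highest library and the genotypes overlapped. Its log2 fold change was -0.43, and it was 0.03 without wild type 1. Within the experiments it was at 61.7% and 96.6% of the wild type, log2 differences of -0.79 and -0.05.

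Markers of endothelial cells, which line vessels, were also highest in wild type 1. The 16 endothelial markers, all detected, summed to 72.3 to 97.6 CPM in the knockout and to 307 and 118 CPM in wild type 1 and 2. All 16 had fold changes below 0. For 11 the genotypes did not overlap, with the knockout below, as was so for 8.57% of all tested genes. By edgeR 0 were called, with or without the experiment as a block. Of the 16, 13 had an unadjusted p under 0.05 by edgeR, against 8.57% of all tested genes, and DESeq2 called 9 lower, Pecam1, Cdh5 and Kdr among them, against 0.711% of all tested genes. Pecam1 encodes CD31, and the sort kept CD31-negative cells. It was at 3.46 to 7.35 CPM in the knockout and at 30.4 and 12.1 CPM in wild type 1 and 2. The 12 pericyte markers summed to 447 to 564 CPM in the knockout and to 316 and 325 CPM in the wild type. However, 1 gene, Mcam, which is not particular to pericytes, held most of this. Mcam rose with the block (log2 fold change 0.82, SE 0.11, adjusted p = 0.0094 by edgeR). It was not called by edgeR with genotype alone, while DESeq2 called it higher. Without Mcam, which was picked out after its values were seen, the other 11 summed to 49.4 to 66.9 CPM in the knockout and to 71.2 and 50.3 CPM in wild type 1 and 2. Of the 12 pericyte markers 11 were tested. Of these, 4 had fold changes above 0 and 7 below, with a median log2 fold change of -0.07. Among the markers other than Mcam, Abcc9 was at 0.551 to 1.38 CPM in the knockout and at 2.55 and 0.962 CPM in the wild type. Kcnj8 was at 0.189 to 0.630 CPM in the knockout and at 0.882 and 0.269 CPM in the wild type. Higd1b was at 0 in knockout 3 and 4 and at most 0.158 CPM elsewhere. The 10 fibroblast markers summed to 112 to 158 CPM in the knockout and to 169 and 142 CPM in wild type 1 and 2. Of these, 9 had fold changes below 0 and 1 above, and 0 were called by edgeR, with or without the block. DESeq2 called 1 of them lower, Lum. The part of vessel cells or fibroblasts in the levels of Rgs5 and Rgs4 was not tested. In such bulk libraries fewer cells of a type and less RNA per cell cannot be told apart.

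The 3 remaining genes were near the limit of what these libraries resolve. Rgs20, an RZ regulator, lies on chromosome 1, positions 4909576 to 5070285 (minus strand). It had 1.63 and 0.356 CPM in knockout 1 and 2, against 1.67 CPM in wild type 1, and 0.940 and 1.42 CPM in knockout 3 and 4, against 0.808 CPM in wild type 2. The knockout pair lay below wild type in experiment 1 and above it in experiment 2, with log2 differences of -1.03 and 0.48. The drop of experiment 1 rested on knockout 2, which had 9 reads (95% Poisson interval 4.12 to 17.1) where knockout 1 had 52 (38.8 to 68.2). Rgs3, an R4 regulator on chromosome 4, positions 62559847 to 62703019, had 36 to 48 reads in the knockout and 48 and 42 reads in the wild type. Its log2 fold change was -0.06, and the genotypes overlapped.

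Rgs1, best known from B and T lymphocytes, lies on chromosome 1, positions 144244669 to 144249104, with 240.5 kb between it and Rgs2. It had 4, 0, 4 and 0 reads in knockout 1 to 4, against 5 and 5 reads in wild type 1 and 2. A count of 0 allows up to 3 reads, or 0.119 CPM in knockout 2 and 0.118 CPM in knockout 4. With so few reads no difference is read from these counts. Leukocyte markers were also low: of 15, Cd3g and Ms4a1 had no reads in the 6 libraries, and Ptprc, which encodes the CD45 of the gate, was at 0 to 0.126 CPM in the knockout and at 0.456 and 0 CPM in wild type 1 and 2. The 15 markers summed to 20.1 to 33.5 CPM in the knockout and to 30.4 and 27.3 CPM in the wild type, most of it Cd68.

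Of the 9 genes in the fit, Oxtr, Rgs2 and Rgs10 had both knockout libraries above wild type in each experiment, Rgs4 and Rgs5 had both below, and Rgs16 and Rgs20 were opposed between the experiments. Some of these sides were narrow. Rgs16 had 149 reads in both knockout 4 and wild type 2. Rgs20 had 52 reads in knockout 1 and 55 in wild type 1, and the log2 difference of Rgs4 in experiment 2 was -0.05. Among all tested genes, 32.2% were on the same side in each experiment and 18.0% were opposed. The median log2 fold change of the 9 genes was -0.06, against -0.01 for all 13925 tested genes. Since the genes were chosen on these values, nothing is read from these shares.

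The genes whose pattern over the 6 libraries was most like that of Oxtr were Six5, Zbtb8a, Nadsyn1, AI646023 and Hdac11. They were found among 10707 genes as those with the smallest root mean square distance from Oxtr after each gene was centred on its mean log2 CPM. The distances ran from 0.14 for Six5 to 0.21 for Hdac11, and Pearson correlations over the 6 libraries ran from 0.97 to 0.99. Six5, a homeobox gene, had 10.7, 11.4, 4.43 and 4.68 CPM in knockout 1 to 4, against 9.67 and 3.93 CPM in wild type 1 and 2. All 5 genes were high in experiment 1 and low in experiment 2, which follows from how they were picked, so nothing is read from it. Over all tested genes, 26.1% separated the experiments in 1 direction or the other.

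**Figure D3:**
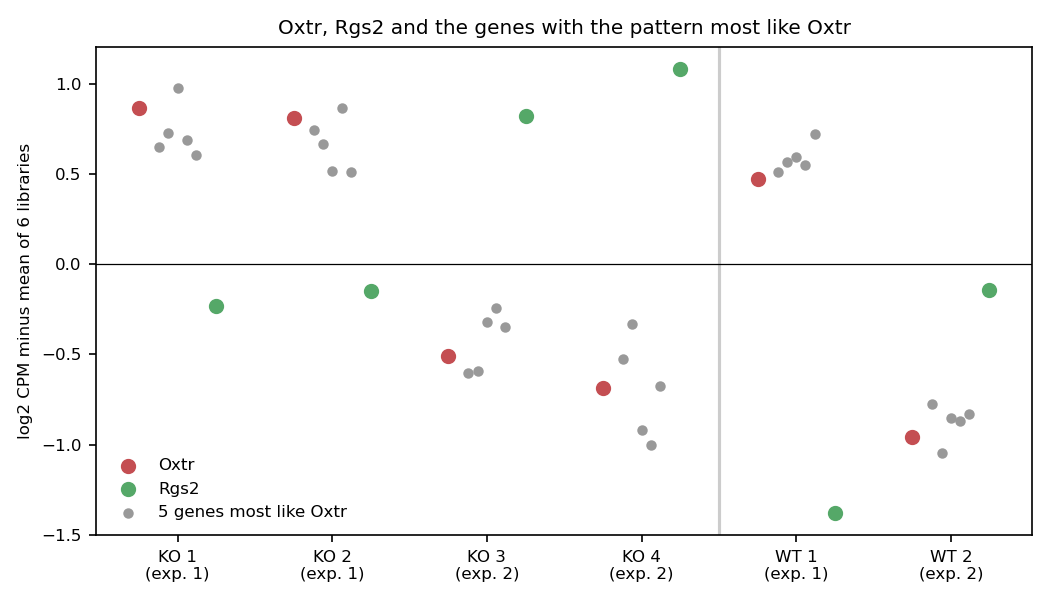
Log2 CPM minus the mean of the 6 libraries (y axis) for Oxtr, Rgs2 and the 5 genes most like Oxtr, by library (x axis, knockout left of wild type). Oxtr and the grey points lie above 0 in the 3 libraries of experiment 1 and below 0 in the 3 of experiment 2; Rgs2 is highest in knockout 3 and 4 and lowest in wild type 1.

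The other genes of G protein signalling were taken as 8 lists by function. By edgeR's quasi-likelihood test with Benjamini-Hochberg adjustment, 0.0790% of all tested genes were called between the genotypes at an adjusted p under 0.05, 0.0575% higher and 0.0215% lower in the knockout. With the experiment added as a replicate block this was 1.56%, with 1.12% higher and 0.438% lower. Of the 128 tested genes of these lists (receptors, G protein subunits, effectors and others), 0 were called by genotype alone and 21 had an unadjusted p under 0.05, a level that 8.57% of all tested genes reached. With the block 1 rose and 1 fell, and DESeq2 called 2 higher and 1 lower. The median log2 fold change of the 128 genes was -0.00, against -0.01 for all tested genes.

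The receptors that act beside Oxtr on smooth muscle or through the same G proteins were a list of 47, of which 32 were tested. Their median log2 fold change was -0.43, with 24 below 0 and 8 above. By edgeR 12 of the 32 had an unadjusted p under 0.05, 3 of them higher, against 8.57% of all tested genes, and DESeq2 called 1 higher, Adra1d, and 1 lower, Ednrb. Genotypes did not overlap for 11 lower and 4 higher receptors, where 8.57% and 7.60% of all tested genes did so. Ednrb, a receptor for endothelins that endothelial cells express, was at 2.07, 2.05, 2.32 and 1.30 CPM in knockout 1 to 4, against 10.98 and 3.77 CPM in wild type 1 and 2. Every knockout library was below both wild-type libraries, and wild type 1, the library with the highest endothelial markers, was the highest. Ednrb fell with the block (log2 fold change -1.80, SE 0.33, edgeR adjusted p = 0.0335) and was not called by genotype alone (-1.93, SE 0.41, edgeR adjusted p = 0.204); the part of endothelial cells in it was not tested. The protease-activated receptor genes F2rl1 and F2r, among the receptors with the highest TPM besides Oxtr, were not called and had log2 fold changes of 0.32 and 0.35 (edgeR adjusted p = 0.58 and 0.561). Avpr1a, a vasopressin receptor of the same family as Oxtr, was at 0.315 to 0.909 CPM in the knockout and at 0.639 and 0.808 CPM in the wild type.

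Downstream of Gq, 29 of 31 listed genes for phospholipase C, calcium release and their kinases and transcription factors were tested, with a median log2 fold change of 0.04. By edgeR 4 had an unadjusted p under 0.05, all 4 higher, against 4.48% of all tested genes in that direction, and DESeq2 called 1 higher, Nfatc1. Nfatc1, a transcription factor that calcineurin activates when calcium rises, averaged 76.7 ± 14.2 CPM (SD, n = 4) in the knockout and 46.6 ± 6.79 CPM (SD, n = 2) in the wild type, with no overlap. It rose with the block (log2 fold change 0.72, SE 0.14, edgeR adjusted p = 0.0421) and was not called by genotype alone (0.72, SE 0.19, edgeR adjusted p = 0.28). The calcium pump gene Atp2a2, the kinase gene Prkcd and the calmodulin gene Calm2 had the highest levels and log2 fold changes of 0.03, -0.09 and 0.08 (edgeR adjusted p = 0.991, 0.962 and 0.954).

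Of 29 genes for G protein subunits 24 were tested, with a median log2 fold change of 0.02. By edgeR 0 were called with or without the block, 1 had an unadjusted p under 0.05, and DESeq2 called 0. Gnai2, the Gi subunit gene with the highest level, averaged 377 ± 20.4 CPM (SD, n = 4) in the knockout and 333 ± 9.79 CPM (SD, n = 2) in the wild type (log2 fold change 0.18, edgeR adjusted p = 0.763). Gnb1 and Gnas were at 519 ± 22.3 and 773 ± 45.1 CPM (SD, n = 4) in the knockout and at 519 ± 37.5 and 761 ± 59.8 CPM (SD, n = 2) in the wild type. The 19 contraction genes, all tested, had a median log2 fold change of 0.03 and 0 calls by edgeR with or without the block, 1 unadjusted p under 0.05 and 0 calls by DESeq2. Acta2, the smooth muscle actin gene, had a log2 fold change of -0.24 (edgeR adjusted p = 0.844), Tagln one of 0.04 (0.984) and Tpm1 one of 0.22 (0.91).

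Of 12 other RGS genes, 11 were in the files and 4 were tested, with 0 called by edgeR with or without the block, 1 unadjusted p under 0.05 and 0 calls by DESeq2. Rgs11, a regulator best known from neurons, was at 19.9 to 33.3 CPM in the knockout and at 38.8 and 25.9 CPM in the wild type (log2 fold change -0.42, edgeR adjusted p = 0.738). Rgs19 had a log2 fold change of -0.10 (edgeR adjusted p = 0.955). Rgs9 was at 2.60 to 3.93 CPM in the knockout, with 4 of 4 libraries below the 6.48 and 4.70 CPM of the wild type, but did not pass (log2 fold change -0.80, SE 0.26, edgeR adjusted p = 0.387, or 0.094 with the block). Of the 7 that were not tested, Rgs18 had no reads in the 6 libraries. Among 8 genes for other proteins with an RGS-like domain, all tested, the counts were the same: 0 by edgeR, 1 unadjusted, 0 by DESeq2. Arhgef1, an exchange factor driven by G12 and G13, had a log2 fold change of -0.32 (edgeR adjusted p = 0.53), Axin1 one of 0.05 (0.963) and Arhgef12 one of 0.13 (0.91).

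Receptor kinases and arrestins, which silence active receptors, had 7 of 9 listed symbols in the files, 0 calls by edgeR or DESeq2, 0 at an unadjusted p under 0.05 and a median log2 fold change of -0.07. Adrbk1, which encodes the receptor kinase GRK2, was at 187 ± 19.1 CPM (SD, n = 4) in the knockout and at 184 ± 4.52 CPM (SD, n = 2) in the wild type. Arrb1 and Grk6 had log2 fold changes of 0.04 and -0.08 (edgeR adjusted p = 0.991 and 0.96). Oxytocin itself, Oxt, was at 0.168 to 0.440 CPM in the knockout and at 0.213 and 0.192 CPM in the wild type. Cd38, an enzyme with a known part in oxytocin release in the brain, was at 2.69 to 4.34 CPM in the knockout, below 6.30 and 6.16 CPM in the wild type, and did not pass (log2 fold change -0.82, edgeR adjusted p = 0.349). Pam and Lnpep, which amidate and degrade peptide hormones, had log2 fold changes of -0.13 and 0.01 (edgeR adjusted p = 0.939 and 0.996).

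**Figure D4:**
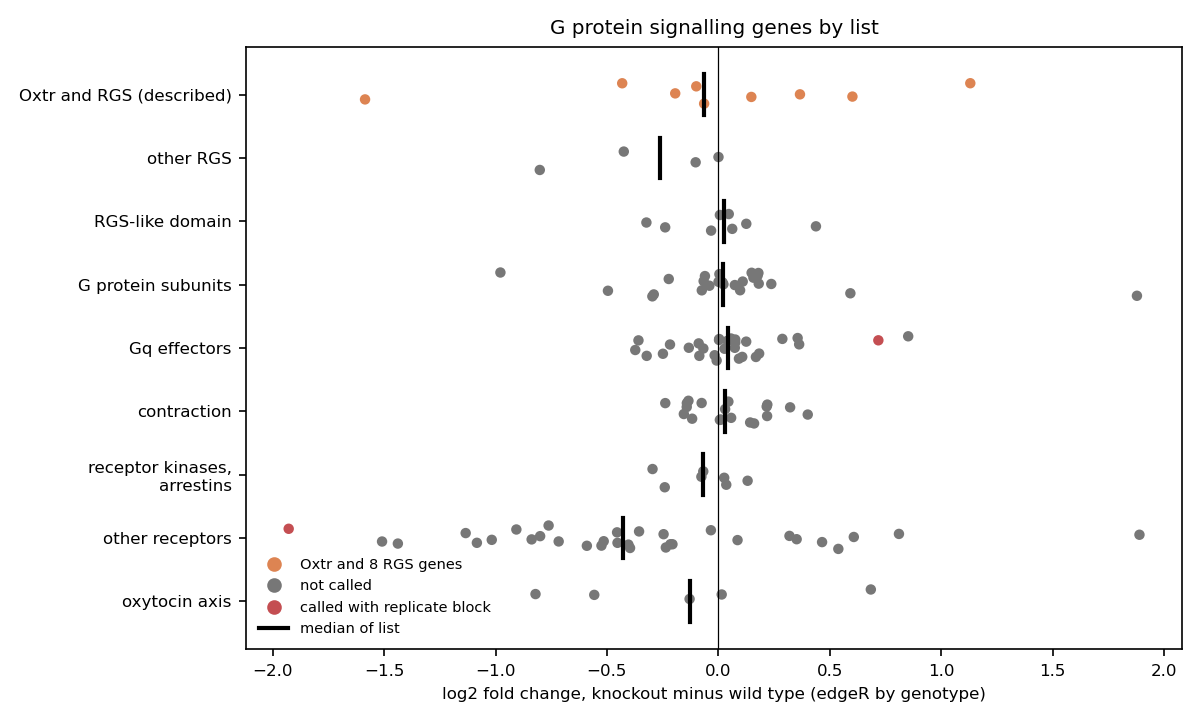
Log2 fold change, knockout minus wild type, by edgeR with genotype as the only term (x axis), for the 9 tested genes described and for the tested genes of 8 lists, 1 list to a line. Points are genes, black bars the list medians, and red points the 2 genes called with the replicate block, Nfatc1 above 0 and Ednrb below; the vertical position within a line is arbitrary.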

How the data were processed

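Messenger RNA libraries of sorted basal cells were analysed from 6 deposited files of raw read counts per gene. Per the file headers, the authors counted reads over exons with featureCounts 1.5.1 in the reverse-stranded setting (option 2) on the UCSC mm10 annotation. Alignment used STAR 2.5.2b, per the submitters' processing notes. The command in the headers does not switch on counting of multi-mapped reads, so genes with near-identical copies are uncertain.

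The 10 genes, the gene lists and the motifs were chosen with earlier results of these data known. Counts were analysed with edgeR 4.0.16 in R 4.3.3: filterByExpr left 13925 genes and set 9412 aside, libraries were scaled by TMM, and genotype was the only term (glmQLFit, robust, and glmQLFTest, 2-sided). A gene was called at a p under 0.05 after Benjamini-Hochberg adjustment. CPM is on the TMM scale and log2 CPM used a prior count of 2. TPM was computed from the files' exon lengths. The test was checked on simulated counts that held no difference between the experiments, so this check does not cover such differences.

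The genes named were the 10 described, Vim, list genes called by genotype or with the block, up to 3 others per list with the highest TPM, and the 5 most like Oxtr that averaged at least 1 in log2 CPM. Others were picked after their values were seen, and 1 gene that the rule names is not reported here.

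The day code in the file names, taken to mark the experiment, was used as the replicate block. The labels do not assign libraries to experiments, so technical and biological differences between them cannot be told apart. Deviations from the group means correlated within an experiment (r = 0.32, 0.29, 0.25 and 0.41 over genes, for the 4 knockout libraries with their wild type) and ran from -0.41 to -0.25 between experiments. With 2 wild-type libraries these mirror each other. The title numbers did not pair the libraries (r = 0.32 for number 1 and -0.29 for number 2). Other size factors, no filter, DESeq2 1.42.0 and leaving out each library were also tried.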

Additional observations from a re-analysis of the deposited data

Results flagged for a closer look

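For 2 of the genes described and 9 others, of 60 checked, both knockout libraries lay on 1 side of wild type in experiment 1 and on the other side in experiment 2. These differences between experiments were not tested, and 18.0% of all tested genes showed such a pattern. The log2 difference from wild type, experiment 2 minus experiment 1, was 1.14 for Rgs16 and 1.51 for Rgs20. It was -0.17 for Gnb1, -0.10 for Atp2a2, -0.28 for Tagln, 0.57 for Arrb1, 0.24 for Grk6 and 0.48 for Hdac11. Among the marker genes it was -0.34 for Krt14, 2.501 for Kcnj8 and -1.23 for Higd1b, the last with at most 4 reads in a library. For Abcc9, a pericyte marker, knockout 2 stood apart from the other 3 knockout libraries at 1.38 CPM, by Dixon's criterion at 95%; chance sets a library apart in about 1 of 20 groups.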

How the results depend on the processing

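Of all tested genes, 8 were called higher and 3 lower by genotype alone. DESeq2 called 163 higher and 99 lower, and the replicate block 156 and 61. Without 1 library the counts ran from 3 to 10 higher (3 without knockout 3, 4 without wild type 1, 5 without knockout 2 or 4) and from 0 to 8 lower (0 without knockout 2, 3 or 4 or wild type 1, 5 without knockout 1, 8 without wild type 2). Of the other G protein signalling genes 0 were called by genotype alone, also with each library left out. DESeq2 called 2 higher, Nfatc1 and Adra1d, and 1 lower, Ednrb, and the block called 1 higher and 1 lower. The block changed no other call among these lists. Other size factors and no filter moved none of these counts by over 1.5 times. Among the 9 genes described, the sign of the fold change over all libraries turned without 1 library for Oxtr (-0.18 without wild type 2), Rgs3 (0.06 without knockout 1, 0.01 without wild type 2), Rgs4 (0.03 without wild type 1), Rgs16 (-0.18 without knockout 3, -0.23 without wild type 2) and Rgs20 (0.11 without knockout 2, 0.45 without wild type 1). These fits had genotype as the only term. Without 1 wild-type library they set knockout libraries of both experiments against a wild type of 1 experiment. For Oxtr the log2 difference was 0.37 within experiment 1 and 0.36 within experiment 2, and the fold change with the block was 0.37. The cause of the turns was not tested. With 1 library of a knockout pair left out, the log2 difference within an experiment takes the value of the remaining library. It was then 0.03 or 1.35 for Rgs16 in experiment 2, -0.22 or -1.37 for Rgs4 in experiment 1 and -0.42 or -1.50 for Rgs5 in experiment 2, and it changed sign for Rgs3 and Rgs12 in experiment 1 without knockout 2. Depth limits Rgs1, Rgs3 and Rgs20, with at most 55 reads in a library. Rgs5 was also low, with 12 to 51 reads in the knockout and 157 and 38 reads in wild type 1 and 2.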

Other observations

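Among the other G protein subunits, the largest fold change was that of Gng4, a gamma subunit gene, picked out after its values were seen. It had 1.73, 0.988, 4.53 and 7.64 CPM in knockout 1 to 4, against 0.760 and 1.27 CPM in wild type 1 and 2, and the genotypes overlapped (log2 fold change 1.88, SE 0.81, edgeR adjusted p = 0.578, or 0.115 with the block). Like Rgs2, it was highest in knockout 3 and 4. Adra1d, an alpha-1 adrenergic receptor that couples to Gq, was at 2.07, 1.98, 3.36 and 1.42 CPM in knockout 1 to 4, above 0.395 and 0.808 CPM in wild type 1 and 2 (log2 fold change 1.89, SE 0.49, edgeR adjusted p = 0.273, or 0.069 with the block). Nfatc2 was at 46.1, 85.5, 105 and 98.3 CPM in knockout 1 to 4, against 39.7 and 53.1 CPM in wild type 1 and 2, and the genotypes overlapped (log2 fold change 0.85, edgeR adjusted p = 0.489). These 3 genes were chosen for their size and are given as values only.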
